A study of Mus musculus with 30 samples.

Results

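A set of 8 genes of intestinal glucocorticoid synthesis and response was followed in the mouse colon: *Nr5a2*, *Cyp11a1*, *Cyp11b1*, *Hsd11b1*, *Nr3c1*, *Fkbp5*, *Tsc22d3* and *Zbtb16*. They were taken by gene name from the table of counts and are 8 of its 46078 genes. Counts, counts scaled to a common library total (CPM) and transcript abundance scaled for length and library total (TPM) were read for each of them in 30 libraries, 1 per mouse. The mice were WT C57BL/6J of both sexes, young animals whose ages at the start spanned several weeks. AOM, a carcinogen that acts on the colon, was injected once at 10 mg/kg, and DSS, an irritant of the gut lining, followed at 2.5% in the drinking water in 3 cycles. The 6 groups held 5 mice each and were female and male vehicle (saline injection), female and male AOM/DSS killed at 9 weeks, and female and male AOM/DSS killed at 15 weeks. Vehicle mice were killed at 9 weeks only and were the baseline for both time points, so treatment and time cannot be told apart at 15 weeks. RNA came from a scrape of the epithelial layer of the colon, a mixture of cells, and fewer cells of a type cannot be told apart from less RNA per cell.

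The gut lining makes glucocorticoids of its own, apart from the adrenal gland. The nuclear receptor encoded by *Nr5a2*, known as liver receptor homolog, switches on the steroidogenic enzymes there. The enzyme encoded by *Cyp11a1* takes the first step from cholesterol, and that of *Cyp11b1* takes the last step to corticosterone. *Hsd11b1* encodes the enzyme that regenerates active corticosterone from its inactive keto form, and *Hsd11b2*, typical of colon epithelium, encodes the one that inactivates it. Corticosterone binds the glucocorticoid receptor, the product of *Nr3c1*, which then switches on target genes such as *Fkbp5*, *Tsc22d3* and *Zbtb16*.

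Counts on genes ran from 9265804 to 30806392 per library, and female vehicle replicate 5 was the shallowest. All 10 epithelial markers were detected in each group, and their summed level ran from 15268 to 40652 CPM per library. The 10 mesenchyme markers summed to 12.5 to 1468 CPM (the highest in male vehicle replicate 1), and the 7 smooth muscle markers to 13.7 to 5947 CPM. Male vehicle replicate 1 held that 5947 CPM against a median of 97.3 CPM in its group, and it is left out in turn where a result rests on it. Of the 6 adrenal markers, *Cyp11b2*, *Mc2r* and *Nr5a1* had at most 0, 1 and 2 counts in any library. *Cyp21a1*, *Star* and *Akr1b7* reached 40, 52 and 666 counts, and the list summed to 4.2 to 24.5 CPM.

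The members fell into a well expressed and a barely expressed set. On the scale of TPM, which is per length of transcript, *Fkbp5* was at 21.8 ± 8.44 in vehicle libraries (mean ± SD, n = 10 here and for the next 6 values), *Tsc22d3* at 13.2 ± 4.56, *Nr3c1* at 9.98 ± 3.61 and *Nr5a2* at 9.03 ± 2.35. Far below them were *Zbtb16* at 0.463 ± 0.493 TPM, *Hsd11b1* at 0.308 ± 0.456 TPM and *Cyp11a1* at 0.228 ± 0.397 TPM. The neighbours in this order from *Tsc22d3* to *Nr5a2*, and the 3 low genes among themselves, were within their SDs of each other. *Cyp11b1* had 0 counts in all 30 libraries. The plot of levels by library shows the 7 members that passed the filter on low counts, *Cyp11b1* being the 1 that did not.

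**Figure D1:**
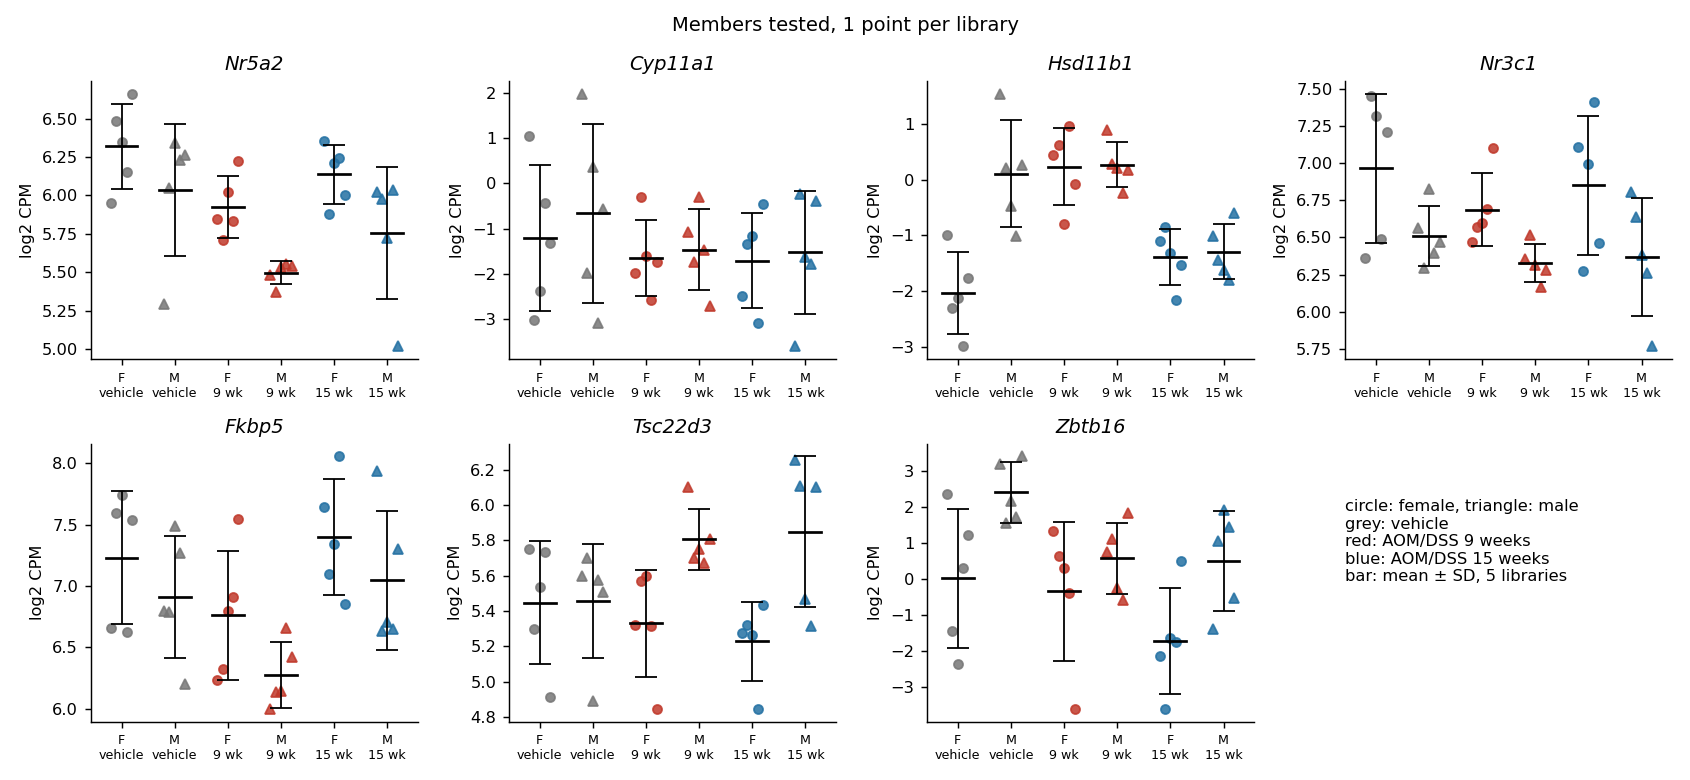
The log2 CPM of each of the 7 tested members (vertical axis) is plotted for every library by group (horizontal axis), with circles for females, triangles for males, and bars for the mean ± SD of 5 libraries. *Hsd11b1* is low in female vehicle (mean −2.03) and near 0.23 and 0.26 in female and male mice at 9 weeks, while *Nr5a2* is lowest in males at 9 weeks (mean 5.50).

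With the sexes pooled, each response was the mean of the female and the male response in 1 fit over all libraries. A differentially expressed gene (DEG) had an adjusted p under 0.05, a log2 fold change above 0.4 in size, and a mean FPKM (fragments per kilobase of transcript, scaled to library size) of at least 1 in a compared group. At 9 weeks against vehicle, 1 of the 7 tested members was a DEG by edgeR, *Nr5a2*, which fell, beside 8.29% of the 16261 genes tested. By DESeq2 there were 2, the other being *Fkbp5*. *Hsd11b1* passed the thresholds on p and fold upward but lay under the FPKM minimum, as did 12% of genes when that minimum was left out, DEGs included. At 15 weeks against vehicle, 0 of 7 members were DEGs (by edgeR, with 1 at an unadjusted p under 0.05, *Zbtb16*, and also 0 by DESeq2) beside 7.35% of genes, and *Zbtb16* passed without the FPKM minimum, as did 11.3% of genes. Between 9 and 15 weeks, *Fkbp5* was the 1 DEG, higher at 15 weeks, beside 2.32% of genes, and *Hsd11b1* was lower without the FPKM minimum, as for 4.32% of genes in either direction. The median log2 fold change of the 7 members was −0.49 at 9 weeks, −0.24 at 15 weeks and 0.12 between them, against −0.02, −0.03 and −0.02 over all genes tested. The 2 responses share the vehicle libraries, and the members' values are set side by side without a test of their likeness.

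**Figure D2:**
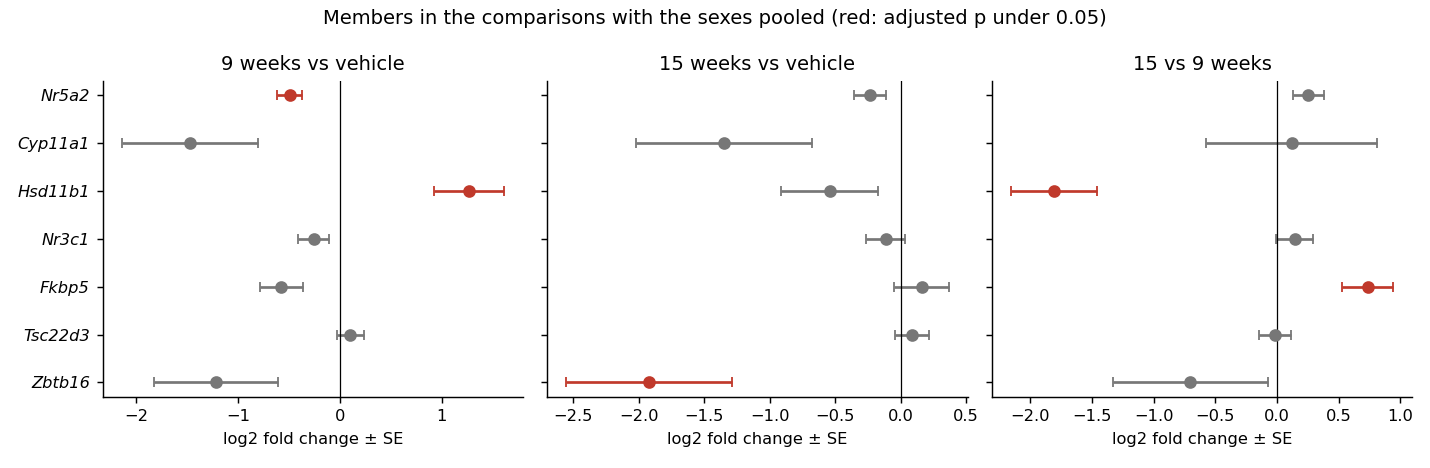
The log2 fold change ± SE (horizontal axis) of the 7 tested members (vertical axis) is shown for the 3 comparisons with the sexes pooled, in red where the adjusted p was under 0.05. *Nr5a2* at −0.49 and *Hsd11b1* at 1.27 are red at 9 weeks, *Zbtb16* at −1.92 at 15 weeks, and *Hsd11b1* at −1.81 and *Fkbp5* at 0.73 between 9 and 15 weeks.

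*Nr5a2* (ENSMUSG00000026398, chr1:136842571-136960448 on GRCm38, minus strand) heads the local pathway. RefSeq gives it a pair of start sites with a promoter entry (GRCm38.p6), and the 250 bases upstream of each are shown because this gene was the DEG at 9 weeks. Neither window overlaps an annotated exon. Capitals mark the matches to the hexamer AGAACA of the glucocorticoid receptor and to the CCAAT box, read on either strand.
Nr5a2, chr1:136960449-136960698, minus strand: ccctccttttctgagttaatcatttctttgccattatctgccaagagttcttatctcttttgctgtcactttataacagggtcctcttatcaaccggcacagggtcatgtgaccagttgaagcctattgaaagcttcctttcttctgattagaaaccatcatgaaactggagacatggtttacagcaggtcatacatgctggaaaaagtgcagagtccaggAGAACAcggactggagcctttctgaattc
Nr5a2, chr1:136953631-136953880, minus strand: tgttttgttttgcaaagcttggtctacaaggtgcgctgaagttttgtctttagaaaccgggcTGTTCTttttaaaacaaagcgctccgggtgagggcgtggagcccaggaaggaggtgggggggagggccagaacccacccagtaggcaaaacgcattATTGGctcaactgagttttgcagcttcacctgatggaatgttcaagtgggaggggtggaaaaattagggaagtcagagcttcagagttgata
The upstream window holds AGAACA at −29 to −24 from the start. The other holds the same hexamer reversed at −188 to −183 and a reversed CCAAT at −92 to −88. Of 32851 mouse promoter windows of this length, 16.08% hold the hexamer and 33.85% the CCAAT letters, and AAGGTCA, the core that Nr5a receptors bind, is in 4.079% of windows and in neither of these. A match of letters is a description and not a site.

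*Nr5a2* fell at 9 weeks with the sexes pooled. The 5 female vehicle libraries held 62.9, 87.2, 77.2, 68.6 and 102.4 CPM, and the 5 female 9-week libraries 60.1, 55.8, 67.1, 59.2 and 68.2 CPM. In males, the vehicle libraries held 43.0, 67.0, 81.9, 79.4 and 84.4 CPM, and the 9-week libraries 46.4, 42.4, 48.3, 49.6 and 49.0 CPM. Vehicle and 9-week libraries overlapped in each sex, in males through vehicle replicate 1 alone. The male 9-week libraries lay below every female 9-week library, and the share of all genes that part in this way was not counted. The pooled log2 fold change was −0.49 (SE 0.12, adjusted p = 0.00594), and it ran from −0.56 to −0.45 with each library left out in turn, with all 20 values still DEGs. With the mesenchyme score, the mean log2 CPM of the 10 mesenchyme markers, as a covariate, it was −0.36 (adjusted p = 0.0168), under the fold threshold.

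Males showed a DEG for *Nr5a2* at 9 weeks, at −0.58 (SE 0.17, adjusted p = 0.0323), beside 7.31% of genes. The female value was −0.40 (SE 0.17, adjusted p = 0.218), and that comparison had 2.9% of genes as DEGs and 0 of the members (2 at an unadjusted p under 0.05, 0 by DESeq2, and 4.05% of genes without the FPKM minimum). The male call ended without any of male vehicle replicates 3, 4 and 5 or male 9-week replicates 1 to 4 (adjusted p from 0.0560 to 0.0837). Levels were lower in males than in females at 9 weeks by a log2 difference of −0.44 (SE 0.17), which did not pass (adjusted p = 0.999), with 0 of 7 members (2 at an unadjusted p under 0.05, 0 by DESeq2) and 0.0492% of genes called. At 15 weeks the libraries ranged from 48.8 to 76.5 CPM in females and from 31.7 to 65.0 CPM in males. The pooled fold change from vehicle was −0.24 (SE 0.12, adjusted p = 0.171). With that score in the fit it was −0.42 (adjusted p = 0.0169), past all thresholds. The change from 9 to 15 weeks did not pass the test (0.25, SE 0.12, adjusted p = 0.206).

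The first and last enzymes of the pathway were at the edge of detection. *Cyp11b1* (ENSMUSG00000075604, chr15:74834125-74841643) had no read in any library, where 3 counts, the limit that a count of 0 allows, would be 0.0974 to 0.324 CPM. *Cyp11a1* (ENSMUSG00000032323, chr9:58006411-58027023) had a median of 6 counts per library. Female vehicle libraries held 57, 1, 3, 15 and 3 counts and male vehicle libraries 120, 4, 32, 1 and 16. At 9 weeks the counts were 4, 17, 7, 2 and 4 in females and 11, 5, 21, 9 and 2 in males, and at 15 weeks 2, 6, 9, 1 and 17 in females and 0, 19, 6, 3 and 20 in males. The groups overlapped throughout, and the pair of high values were vehicle replicate 1 of each sex. The pooled change was −1.47 at 9 weeks (SE 0.67, adjusted p = 0.141) and −1.35 at 15 weeks (SE 0.67, adjusted p = 0.154), and without male vehicle replicate 1 it was −0.85 and −0.73.

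Other genes of steroid synthesis and metabolism held no DEG in the pooled comparisons by edgeR. Of 20 listed, 11 passed the filter on low counts, and 3, 2 and 2 of them had an unadjusted p under 0.05 at 9 weeks, at 15 weeks and between them, with 1, 0 and 1 DEGs by DESeq2 (*H6pd* at 9 weeks and *Hsd11b2* between the time points). Over all 16261 genes, 8.29%, 7.35% and 2.32% were DEGs by edgeR, and 4720, 5559 and 3846 genes had an unadjusted p under 0.05. The median log2 fold change of the 11 listed genes was −0.11 at 9 weeks, 0.04 at 15 weeks and 0.07 between them. *H6pd*, which supplies the cofactor of the *Hsd11b1* enzyme, was at 0.40 at 9 weeks (SE 0.11, adjusted p = 0.0115). *Tspo*, a mitochondrial cholesterol-binding protein, was at 0.38 (SE 0.11, adjusted p = 0.0209), and both were under the fold threshold. At 15 weeks they were at 0.25 (SE 0.11, adjusted p = 0.0976) and 0.26 (SE 0.11, adjusted p = 0.110), neither past the test. Within males at 9 weeks both were DEGs, at 0.61 (SE 0.15, adjusted p = 0.0115) and 0.55 (SE 0.16, adjusted p = 0.0272), as 2 of the 11 genes beside 7.31% of all genes. Within females they were at 0.18 (adjusted p = 0.619) and 0.20 (adjusted p = 0.581), and the sexes did not pass a test of the difference (0.43 and 0.35, adjusted p = 0.680 and 0.737). The male call for *H6pd* held with each library left out, and that for *Tspo* ended without male vehicle replicates 3, 4 or 5 or male 9-week replicates 1, 3 or 4 (adjusted p from 0.0503 to 0.0770) and with the clock score, a contrast of day and night clock genes, as a covariate (adjusted p = 0.119). The 3β-hydroxysteroid dehydrogenase genes *Hsd3b3* and *Hsd3b2* reached 94.0 ± 57.5 and 15.5 ± 8.51 TPM in vehicle libraries (n = 10), and reads of such close copies are assigned with uncertainty. *Star*, the carrier of cholesterol into mitochondria, had 6 to 52 counts per library. *Nr0b2*, a repressor of *Nr5a2* activity, had at most 4 counts. *Fdx1*, of the same list, was at 0.24 from 9 to 15 weeks (SE 0.11, adjusted p = 0.184).

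*Hsd11b1* (ENSMUSG00000016194, chr1:193221634-193264075, minus strand) was scarce, and its pooled level was highest at 9 weeks. Female vehicle libraries held 0.430, 0.119, 0.140, 0.0426 and 0.216 CPM, from 1 to 12 counts. Female 9-week libraries held 1.33, 1.56, 0.507, 1.95 and 0.785 CPM, from 14 to 44 counts, all above every female vehicle library. Male vehicle libraries held 3.10, 1.08, 0.645, 0.438 and 1.23 CPM, and male 9-week libraries 1.84, 1.16, 1.12, 0.812 and 1.10 CPM, which overlapped. At 15 weeks the values were 0.336, 0.393, 0.331, 0.137 and 0.282 CPM in females and 0.369, 0.285, 0.222, 0.205 and 0.571 CPM in males. In each sex every 15-week library lay below every 9-week library. For none of these separations was the share of all genes that part in the same way counted.

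The rise at 9 weeks was 1.27 on the log2 scale with the sexes pooled (SE 0.35, adjusted p = 0.0114). In females it was 2.60 (SE 0.53, adjusted p = 0.00401), and in males −0.07 (SE 0.46, adjusted p = 0.947), a value that changed sign in 4 alternative fits and with 2 single libraries left out. The difference between these responses was −2.68 (SE 0.69, unadjusted p = 0.000599), which did not pass over all genes (adjusted p = 0.474). By edgeR 0 genes passed that test of the difference, with 1205 at an unadjusted p under 0.05 and 2 passing by DESeq2. In vehicle mice, males were 2.64 above females (SE 0.52, adjusted p = 0.0376), under the FPKM minimum, in a comparison with 0.178% of genes as DEGs and 0.252% without that minimum. That call ended without male vehicle replicate 1 (2.05, adjusted p = 0.338) and without female vehicle replicates 2, 3, 4 or 5 (adjusted p from 0.102 to 0.181), and in the fit of the compared libraries only (adjusted p = 0.290). At 9 and 15 weeks the sexes differed by −0.04 (adjusted p = 0.999) and 0.17 (adjusted p = 0.941).

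By 15 weeks *Hsd11b1* was below its 9-week level by a log2 change of −1.81 with the sexes pooled (SE 0.35, adjusted p = 0.00891), a value that ran from −1.94 to −1.70 with each library left out. Within females the change was −1.91 (SE 0.50, adjusted p = 0.226) and within males −1.71 (SE 0.49, adjusted p = 0.162). By edgeR 0 genes passed in either of these single-sex comparisons, with 2046 and 2179 genes at an unadjusted p under 0.05, and 30 and 100 genes were DEGs by DESeq2, none of them a member. Without female 9-week replicate 5 the female value was −1.98, with an adjusted p of 0.0448. Against vehicle, males at 15 weeks were lower by −1.78 (SE 0.49, adjusted p = 0.0178), again under the FPKM minimum, in a comparison where 8.92% of genes were DEGs and 0 members, and 12.5% passed without the minimum. That value was −1.19 without male vehicle replicate 1 (adjusted p = 0.119). Females at 15 weeks were at 0.69 (SE 0.54, adjusted p = 0.644), in a comparison with 0.0984% of genes and 0 members as DEGs.

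*Hsd11b1* levels followed the mesenchyme markers across libraries. The score had medians of 1.44 in female vehicle, 3.73 in male vehicle, 4.04 and 3.93 at 9 weeks in females and males, and 1.73 and 2.29 at 15 weeks. *Hsd11b1* correlated with it at a Pearson r of 0.81 and a Spearman rho of 0.85 over 30 libraries, and at 0.64 and 0.61 within groups (0.77 and 0.83, and 0.55 and 0.55, over the 29 libraries without male vehicle replicate 1), given as a description of libraries that share their composition and depth. Other members also ran with or against the score. Within groups the Pearson r was 0.69 for *Tsc22d3*, −0.66 for *Nr5a2*, 0.51 for *Cyp11a1*, −0.39 for *Nr3c1* and 0.39 for *Zbtb16*. In the marker list, with the sexes pooled, 0 of 10 genes were DEGs at 9 weeks (1 at an unadjusted p under 0.05, 0 by DESeq2), 5 fell at 15 weeks against vehicle and 3 fell from 9 to 15 weeks, beside 8.29%, 7.35% and 2.32% of all genes, all 10 being detected in every group. Without male vehicle replicate 1 the 5 that fell at 15 weeks were 1, and 1 gene was a DEG upward at 9 weeks. At 9 weeks the values of all 10 were above 0 in females, with a median of 1.54, and below 0 in males, with a median of −0.86. By edgeR 0 of them were DEGs in either sex (6 and 2 at an unadjusted p under 0.05, 1 and 0 by DESeq2), and the male median was 0.15, with 6 of 10 above 0, without male vehicle replicate 1. In the smooth muscle list 6 of 7 genes were DEGs higher in vehicle males than in vehicle females, beside 0.178% of all genes, with a list median of 6.401. Without male vehicle replicate 1 the list had 0 of 7 (6 at an unadjusted p under 0.05), with a median of 2.41. With the score as a covariate the female rise at 9 weeks was 1.92 (adjusted p = 0.0264) and the pooled rise 1.11 (adjusted p = 0.00559), both still past p and fold. The drop from 9 to 15 weeks was then −0.96 (adjusted p = 0.461), the vehicle sex difference 1.49 (adjusted p = 0.999), and the male change at 15 weeks −0.55 (adjusted p = 0.508), none of them past the test.

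**Figure D3:**
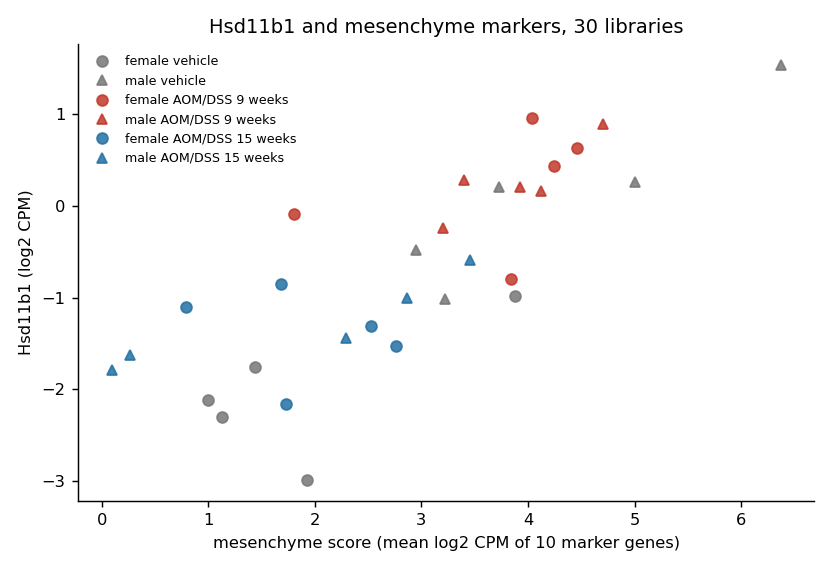
Each of the 30 libraries is placed by its mesenchyme score (mean log2 CPM of 10 markers, horizontal axis) and its *Hsd11b1* level (log2 CPM, vertical axis), coloured by treatment with circles for females and triangles for males. The points rise together, with a Pearson r of 0.81, and male vehicle replicate 1 is at the top right with a score of 6.37.

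The gene for the opposing enzyme, *Hsd11b2*, was far more abundant, at 63.2 ± 27.1 TPM in vehicle, 90.9 ± 32.4 TPM at 9 weeks and 45.5 ± 22.5 TPM at 15 weeks (n = 10 each). Its pooled changes were 0.21 (adjusted p = 0.307), −0.21 (adjusted p = 0.246) and, from 9 to 15 weeks, −0.42 (adjusted p = 0.0562), none past the test. The log2 ratio of *Hsd11b1* to *Hsd11b2* CPM averaged −8.68 ± 1.25 in vehicle, −7.65 ± 0.58 at 9 weeks and −8.85 ± 0.49 at 15 weeks (SD, n = 10). The ratio was thus 1.02 higher at 9 weeks than in vehicle (two-sided permutation test, p = 0.0299, adjusted p = 0.0448 over 3 comparisons). It fell from 9 to 15 weeks, with a difference of −1.20 (permutation p = 0.00031, adjusted p = 0.00093). Libraries were shuffled without regard to sex and no difference within a sex was tested, so these pooled values do not describe each sex. Vehicle and 15 weeks differed by −0.17 (permutation p = 0.692). The mesenchyme score, which *Hsd11b1* followed, had medians of 3.09 in vehicle, 3.98 at 9 weeks and 2.01 at 15 weeks. The ratio was not tested with that score as a covariate, and with it the drop of *Hsd11b1* itself from 9 to 15 weeks did not pass. A change in the mixture of cells thus cannot be told apart from a change in the balance of the enzymes' RNA. All 5 female vehicle libraries, from −10.68 to −8.93, were below 4 of the 5 female 9-week libraries, while the male vehicle libraries, from −9.32 to −6.34, spanned all 5 male 9-week libraries. Leaving out single libraries took the difference at 9 weeks from 0.80 to 1.28, and 15 of the 20 values that left out a vehicle or 9-week library did not pass, the lowest without female vehicle replicate 4 (adjusted p = 0.0914).

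**Figure D4:**
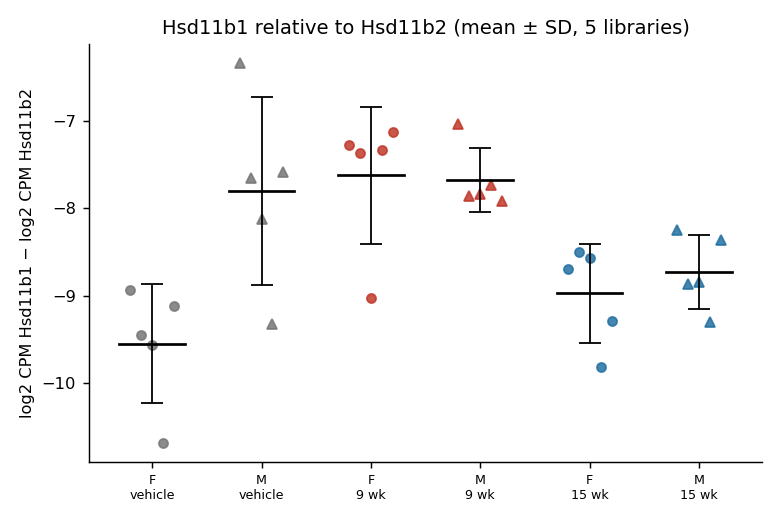
The log2 CPM of *Hsd11b1* minus that of *Hsd11b2* (vertical axis) is plotted for each library by group (horizontal axis), with bars for the mean ± SD of 5 libraries. Female vehicle libraries, from −10.68 to −8.93, are the lowest group, and both 15-week groups lie below most 9-week libraries.

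*Nr3c1* (ENSMUSG00000024431), the receptor gene itself, showed no change that passed the test. Its level was 9.98 ± 3.61 TPM in vehicle, 10.2 ± 1.88 TPM at 9 weeks and 7.85 ± 4.10 TPM at 15 weeks (n = 10 each). The pooled log2 fold change was −0.26 at 9 weeks (SE 0.15, adjusted p = 0.254), −0.12 at 15 weeks (adjusted p = 0.607) and 0.14 between them (adjusted p = 0.569). Values were lower in males than in females in vehicle (−0.51, SE 0.21, adjusted p = 0.185), at 9 weeks (−0.37, adjusted p = 0.999) and at 15 weeks (−0.50, SE 0.21, adjusted p = 0.315), none of which passed. Without female vehicle replicate 1 the vehicle difference was −0.64, with an adjusted p of 0.0484. Female vehicle libraries ran from 83.7 to 170.3 CPM against 79.3 to 114.8 CPM in males. All 16 genes of the receptor complex and its cofactors, chaperones and coactivators among them, were tested. In the pooled comparisons 0 were DEGs by edgeR or by DESeq2, beside 8.29%, 7.35% and 2.32% of all genes by edgeR. At an unadjusted p under 0.05 there were 5, 8 and 3 of them, beside 4720, 5559 and 3846 of all 16261 genes. *Nr3c2*, the mineralocorticoid receptor gene, was at −0.39 at 9 weeks (SE 0.11, adjusted p = 0.0185) and −0.37 at 15 weeks (SE 0.11, adjusted p = 0.0276), under the fold threshold. *Ppp5c*, a phosphatase bound to the receptor's chaperone, was at −0.19 and −0.27 (adjusted p = 0.0536 and 0.0119). Within males the list held 1 DEG at 9 weeks and 2 at 15 weeks, beside 7.31% and 8.92% of all genes, against 0 in females at both times (2 and 1 at an unadjusted p under 0.05, 0 by DESeq2). *Nr3c2* fell in males at 9 weeks, at −0.58 (SE 0.16, adjusted p = 0.0208), with −0.19 in females (adjusted p = 0.605), and these responses did not pass a test of their difference (−0.39, adjusted p = 0.717). The 15-week pair in males were *Ppp5c* at −0.40 (adjusted p = 0.00896) and the coactivator gene *Ncoa1* at −0.52 (adjusted p = 0.0435), the latter named after its values were seen. Without male vehicle replicate 1 none of these 3 was a DEG, at −0.48 (adjusted p = 0.0764), −0.32 (adjusted p = 0.0471, under the fold threshold) and −0.40 (adjusted p = 0.169). Calls also ended without male vehicle replicate 3 or male 9-week replicates 3 or 4 for *Nr3c2*, without male vehicle replicate 5 or male 15-week replicates 1, 3 or 4 for *Ppp5c*, and without male vehicle replicate 5 or male 15-week replicates 1 or 5 for *Ncoa1*. With the clock score as a covariate none of the 3 was a DEG (−0.36, −0.21 and −0.30, adjusted p = 0.323, 0.269 and 0.456), and in the replicate block fit *Ppp5c* was at −0.40, just under the fold threshold, and *Ncoa1* had an adjusted p of 0.0706. The *Ppp5c* call also ended with another scaling of the counts (−0.39), no filter on low counts (−0.38), the mesenchyme score (−0.20), *Hoxb13* (−0.36), the compared libraries only (−0.39) and DESeq2 (−0.39). That of *Ncoa1* also ended with no filter, the mesenchyme score, *Hoxb13* and the compared libraries only (adjusted p = 0.0711, 0.378, 0.0904 and 0.165). From 9 to 15 weeks the chaperone gene *Hspa8* was at 0.38 (adjusted p = 0.0282) and the immunophilin gene *Fkbp4* at 0.22 (adjusted p = 0.0970).

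*Fkbp5* (ENSMUSG00000024222, chr17:28399095-28517524, minus strand) encodes an immunophilin that restrains the receptor and is one of its best known targets. The 250 bases upstream of its RefSeq start (GRCm38.p6) are shown because it was the DEG between 9 and 15 weeks. Capitals mark the CCAAT box, forward at −93 to −89 and reversed at −46 to −42, and the window holds no AGAACA and no AAGGTCA on either strand.
Fkbp5, chr17:28486150-28486399, minus strand: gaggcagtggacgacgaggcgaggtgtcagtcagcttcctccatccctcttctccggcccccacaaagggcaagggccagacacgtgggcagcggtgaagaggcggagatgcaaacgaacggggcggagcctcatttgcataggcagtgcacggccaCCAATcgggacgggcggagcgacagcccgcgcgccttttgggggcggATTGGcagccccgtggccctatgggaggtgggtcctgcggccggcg
On the log2 CPM scale the vehicle libraries were at 6.65, 7.59, 7.74, 6.63 and 7.54 in females and 6.79, 6.79, 7.49, 7.27 and 6.21 in males. At 9 weeks they were at 6.23, 6.32, 6.79, 6.91 and 7.54 in females and 6.00, 6.14, 6.15, 6.66 and 6.42 in males. At 15 weeks the values were 7.64, 7.10, 7.34, 8.06 and 6.85 in females and 7.93, 6.63, 6.71, 6.65 and 7.30 in males. The 3 conditions overlapped, and the 3 lowest of the 30 libraries were males at 9 weeks.

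*Fkbp5* was higher at 15 than at 9 weeks by 0.73 (SE 0.21, adjusted p = 0.0422), with 0.62 in females (adjusted p = 0.389) and 0.85 in males (adjusted p = 0.217). The pooled call was near its threshold. With the mesenchyme score as a covariate the difference was 0.49 (SE 0.23, adjusted p = 0.539), and in the replicate block fit it was 0.75 (adjusted p = 0.0591), neither past the test. *Fkbp5* correlated with the score at a Pearson r of −0.53 over 30 libraries and −0.36 within groups, as a description. The call ended in 14 of the 20 fits that left out 1 library (adjusted p from 0.0505 to 0.0934), and held without female 9-week replicate 5, male 9-week replicate 4, female 15-week replicate 5 or male 15-week replicates 2, 3 or 4. At 9 weeks against vehicle it was at −0.58 (SE 0.21, adjusted p = 0.0584), just outside, and past the threshold without female vehicle replicates 1 or 4, male vehicle replicate 5, female 9-week replicate 5 or male 9-week replicate 4 (adjusted p from 0.0150 to 0.0498). By DESeq2 *Fkbp5* was a DEG in this comparison, where 2 members were called against 1 by edgeR. The single-sex values were −0.47 in females (adjusted p = 0.453) and −0.68 in males (adjusted p = 0.141). At 15 weeks the level was 0.16 from vehicle (adjusted p = 0.612).

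*Zbtb16* (ENSMUSG00000066687, chr9:48654311-48835945, minus strand) encodes a zinc finger transcription factor. It ran from 0 to 281 counts over the libraries. Female vehicle libraries held 5.16, 0.277, 0.105, 1.11 and 2.27 CPM and male vehicle libraries 9.87, 2.86, 4.44, 3.39 and 11.5 CPM. At 9 weeks the values were 2.53, 1.56, 1.20, 0.708 and 0 CPM in females and 1.66, 2.10, 0.798, 0.617 and 3.66 CPM in males. At 15 weeks they were 0.126, 0, 0.248, 0.205 and 1.41 CPM in females and 0.264, 1.995, 3.37, 2.60 and 0.605 CPM in males. Male vehicle libraries were the highest group, and libraries of each sex overlapped across the conditions. The pooled change was −1.22 at 9 weeks (SE 0.61, adjusted p = 0.184) and −1.92 at 15 weeks (SE 0.63, adjusted p = 0.0367), the latter under the FPKM minimum. The 15-week call ended without female vehicle replicates 1 or 5, male vehicle replicates 1 or 5, female 15-week replicates 1 to 4 or male 15-week replicates 1 or 5 (adjusted p from 0.0539 to 0.124), and was −1.41 without female vehicle replicate 1. Males were above females by 1.76 in vehicle (SE 0.87, adjusted p = 0.272) and 2.20 at 15 weeks (SE 0.93, adjusted p = 0.317), neither past the test.

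*Zbtb16* tracked *Hoxb13*, a homeobox gene of the most distal colon, at a Spearman rho of 0.94 over 30 libraries and 0.86 within groups. *Hoxb13* was chosen after the genes nearest to *Zbtb16* had been seen, and itself ran from 2.87 to 8.70 log2 CPM. The labels do not state the stretch of colon scraped. *Fkbp5* ran against *Hoxb13*, at −0.63 over all libraries and −0.69 within groups, and so did *Nr3c1* at −0.52 and −0.46. With the *Hoxb13* level as a covariate, an alternative added after seeing the data, the *Zbtb16* change at 15 weeks was −0.36 (adjusted p = 0.612) and no longer passed. In the same fit *Fkbp5* was lower at 9 weeks by −0.71 (SE 0.14, adjusted p = 0.000695), past all thresholds, and its difference from 9 to 15 weeks was 0.47 (adjusted p = 0.139), not past them. *Nr5a2* at 9 weeks was −0.52 (adjusted p = 0.00239) and *Hsd11b1* 1.37 (adjusted p = 0.00615), with *Nr5a2* still a DEG and *Hsd11b1* still past p and fold.

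**Figure D5:**
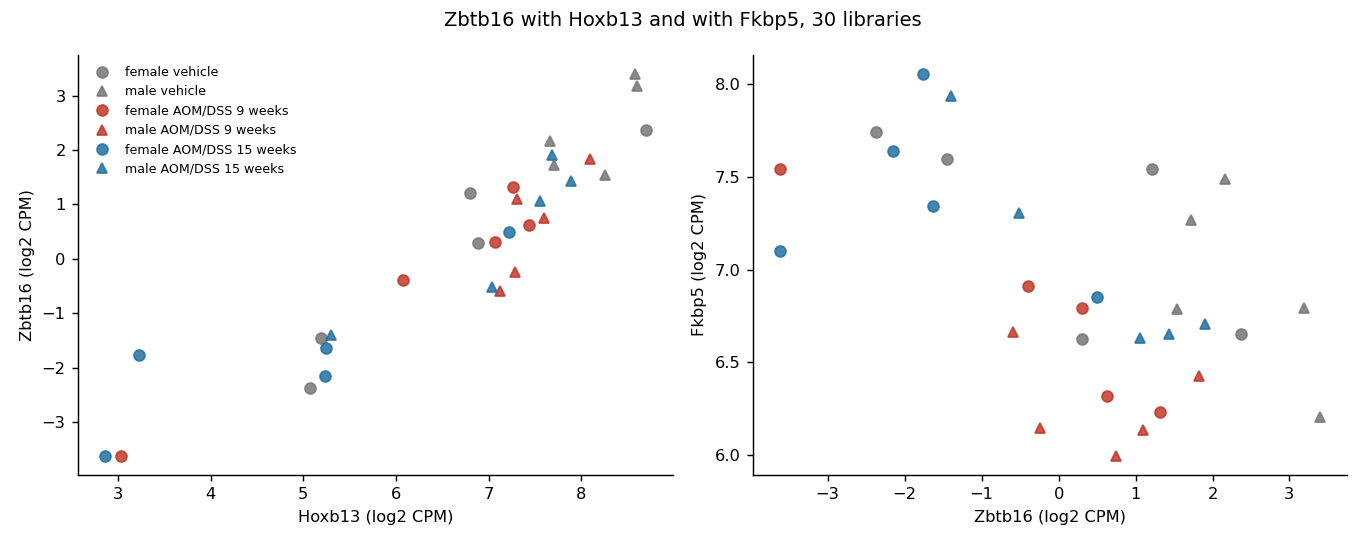
Each point is 1 of 30 libraries, coloured by treatment with circles for females and triangles for males, with *Zbtb16* against *Hoxb13* on the left and *Fkbp5* against *Zbtb16* on the right (all axes in log2 CPM). *Zbtb16* rises with *Hoxb13* (Spearman rho 0.94) and *Fkbp5* falls as *Zbtb16* rises (within-group Pearson r −0.68).

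*Tsc22d3* (ENSMUSG00000031431, chrX:140539528-140600659, minus strand), which encodes the glucocorticoid-induced leucine zipper, showed no pooled change that passed the test. The log2 fold change was 0.10 at 9 weeks (adjusted p = 0.655), 0.09 at 15 weeks (adjusted p = 0.662) and −0.01 between them (adjusted p = 0.957). At 9 weeks female libraries held 41.8, 50.4, 49.9, 41.4 and 26.1 CPM and male libraries 71.2, 53.1, 56.0, 53.7 and 58.9 CPM. All males were above all females, and the share of all genes that part the sexes in this way was not counted. That difference of 0.46 (SE 0.18, unadjusted p = 0.0182) did not pass over all genes (adjusted p = 0.999). At 15 weeks females held 33.9, 33.1, 39.6, 27.4 and 45.8 CPM and males 67.7, 68.7, 40.5, 39.5 and 67.2 CPM, a difference of 0.66 (SE 0.18, adjusted p = 0.111) in a comparison with 0.184% of genes and 0 members as DEGs by edgeR. By DESeq2 it was the 1 member called there (0.66, adjusted p = 0.0404). The female and male responses at 15 weeks were −0.24 (adjusted p = 0.635) and 0.42 (adjusted p = 0.120), and they differed by 0.66 (SE 0.26, adjusted p = 0.538), not past the test. Without male 15-week replicate 4 the male response was 0.55, with an adjusted p of 0.0413.

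Among 24 other genes known to respond to glucocorticoids, 22 were tested. At 9 weeks 5 were DEGs upward and 1 downward, beside 8.29% of all genes in either direction, with a median log2 fold change of −0.06 over the list and −0.02 over all genes. *Il1r2*, a decoy receptor for interleukin, rose by 4.36 (SE 0.72, adjusted p = 0.000111), *Cebpb*, a transcription factor, by 0.97 (SE 0.24, adjusted p = 0.00586) and *Anxa1*, an anti-inflammatory annexin, by 0.75 (SE 0.17, adjusted p = 0.00269). The fall was in *Sult1a1*, a sulfotransferase gene, at −0.64 (SE 0.17, adjusted p = 0.00879). In the same comparison 5 of 6 neutrophil markers were DEGs upward, and their part in the rises was not tested. At 15 weeks the 1 DEG of the list was *Klf9*, a Krüppel-like factor gene, at −0.59 (SE 0.14, adjusted p = 0.00882), beside 7.35% of all genes, and the list median was 0.07 against −0.03 over all genes. That call ended with the mesenchyme score, the clock score or *Hoxb13* as a covariate (adjusted p = 0.0568, 0.0766 and 0.0779). From 9 to 15 weeks it was *Il1r2*, at −3.19 (SE 0.66, adjusted p = 0.0130), beside 5 of 6 neutrophil markers that fell, and 2.32% of all genes, with a list median of −0.05 against −0.02, and *Il1r2* was at −1.90 (adjusted p = 0.517) with the mesenchyme score as a covariate. The clock gene *Per1*, also a receptor target, was at −0.45 at 9 weeks (SE 0.35, adjusted p = 0.437) and −0.68 at 15 weeks (SE 0.36, adjusted p = 0.176).

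Members were also compared with each other over the 30 libraries, after each group's mean was taken off. Of 21 pairs, 6 had an adjusted permutation p under 0.05 for Pearson's r. *Fkbp5* and *Zbtb16*, both receptor targets, ran against each other, at an r of −0.68 and a Spearman rho of −0.68 (permutation, adjusted p = 0.00882 and 0.0084), and r was −0.58 without the 2 libraries farthest from the median. *Nr3c1* rose with *Nr5a2* (r 0.61, rho 0.60, permutation adjusted p = 0.0111 and 0.0256, r 0.70 without 2) and with *Fkbp5* (r 0.63, rho 0.60, permutation adjusted p = 0.0167 and 0.0265, r 0.70 without 2). *Nr5a2* and *Hsd11b1* had an r of −0.59 (permutation adjusted p = 0.0244) but a rho of −0.47 that did not pass (adjusted permutation p = 0.0860), and r was −0.39 without 2 libraries. *Cyp11a1* ran against *Fkbp5* (r −0.53, rho −0.53, permutation adjusted p = 0.0347 and 0.0484, r −0.55 without 2). Its r with *Nr5a2* was −0.56 (permutation adjusted p = 0.0445), with a rho of −0.41 that did not pass (permutation adjusted p = 0.127) and an r of −0.41 without 2. *Tsc22d3* and *Zbtb16*, another pair of receptor targets, had an r of 0.06 (permutation adjusted p = 0.766). Genes of the 6 pairs also ran with *Hoxb13* or the mesenchyme score within groups. Spearman rho with *Hoxb13* was 0.86 for *Zbtb16*, −0.69 for *Fkbp5*, −0.46 for *Nr3c1*, 0.42 for *Cyp11a1*, −0.29 for *Nr5a2* and 0.15 for *Hsd11b1*. Pearson r with the score was −0.66 for *Nr5a2*, 0.64 for *Hsd11b1* and 0.51 for *Cyp11a1*, and weaker for the others. No pair was recomputed with either held fixed, and their part was not tested.

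The genes whose levels lay nearest to each member were ranked by Spearman rho among 16261 genes over 30 libraries, as a description. *Nr5a2* was nearest to *Ugt2b34* (0.96), *Tmem35* (0.91) and *Entpd5* (0.90), and *Nr3c1* to *App* (0.89), *Lats2* (0.88) and *Foxj3* (0.88). *Fkbp5* was nearest to *Akr1c19* (0.89), *Ociad2* (0.89) and *Acaa2* (0.88), and *Tsc22d3* to *Tmem37* (0.81), *Ppm1j* (0.76) and *Frmd8* (0.74). *Hsd11b1* was nearest to *Emp3* (0.90), *Col27a1* (0.88) and *Fkbp10* (0.88), the last 2 a collagen gene and a gene of collagen folding. *Zbtb16* was nearest to *Lix1* (0.95), *AI854703* (0.95) and *Slc15a1* (0.95), and *Cyp11a1*, with its few counts, to *Nfe2l3* (0.69), *Gm17322* (0.68) and *A430048G15Rik* (0.67).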

How the data were processed

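Colon scrapes of 30 mice were sequenced as poly(A)-selected stranded libraries. The authors aligned reads to mm10 (GRCm38) with STAR and counted them per gene with featureCounts, and these raw counts were deposited. Estimates of FPKM, TPM and mean coverage per gene were made by the authors with StringTie, coverage was not used, and lines of the same gene were added. Duplicate reads were not removed, so the floor of 3 counts covers counting error only. Groups came from the labels. Counts were normalized by TMM, filtered by expression (16261 genes) and fitted with edgeR 4.0.16 (quasi-likelihood test, all 30 libraries, Benjamini-Hochberg adjustment), tested on simulated data. The log2 CPM values used a prior count of 2. Ratios and correlations were tested with 100000 permutations. Alternatives used DESeq2 1.42.0 and other scalings, filters, covariates and subsets of libraries. Each mouse gave 1 library, and no pair within a group was identical. The members and gene lists were chosen with earlier results of these data known. All members were described, and up to 3 DEGs in each direction from the synthesis, receptor and response lists (otherwise the 2 of smallest p), *Hsd11b2*, *Nr3c2*, *Nr0b2*, *Per1*, and the 3 genes nearest each member. Promoter windows are RefSeq's. None was taken on chromosome 18, where *Nr3c1* lies, and windows were used for 5 of the 8 members.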

Additional observations from a re-analysis of the deposited data

Results flagged for a closer look

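Among 48 checks of 5 libraries each, 5 found 1 library apart from its group, where chance alone flags about 1 in 20. *Nr5a2* in male vehicle replicate 1 was at 5.30 log2 CPM against a group median of 6.23, and this library also had the highest mesenchyme score. *Tsc22d3* was at 4.89 log2 CPM in male vehicle replicate 3 against a median of 5.58, and at 4.84 in female 15-week replicate 4 against 5.27. The log2 ratio of *Hsd11b1* to *Hsd11b2* was −9.02 in female 9-week replicate 3 against a median of −7.34, and −7.04 in male 9-week replicate 1 against −7.84.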

How the results depend on the processing

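Of the alternative values computed for 105 results on single members, 748 kept their direction and side of the thresholds on p and fold. Another 21 no longer passed these thresholds, 8 newly passed them and 54 changed sign. The FPKM minimum was left out of these labels, while the numbers of members called below include it unless stated. The number of members called at 9 weeks, 1, was 0 with the mesenchyme score as a covariate and 2 with *Hoxb13* as a covariate, with DESeq2 and with no FPKM minimum, and 1 to 2 with a library left out. At 15 weeks it was 0, and 1 with the mesenchyme score and with no FPKM minimum. Between 9 and 15 weeks it was 1, with 0 under the mesenchyme score, *Hoxb13*, the replicate block or no filter on low counts, 2 with no FPKM minimum, and 0 to 1 with a library left out. For responses within a sex it was 1, with 0 under the replicate block or in the compared libraries only, 3 under the mesenchyme score or no FPKM minimum, 2 under *Hoxb13*, and 0 to 2 with a library left out. Between the sexes it was 0, with 1 under the mesenchyme score, DESeq2 or no FPKM minimum, and 0 to 1 with a library left out. The 6 correlated pairs became 12 without centring and 3 to 8 with a library left out, and the ratio difference at 9 weeks was 1.22 in TPM and no longer passed, and 0.80 to 1.28 with a library left out.

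Signs turned with the mesenchyme score for *Nr3c1* (−0.072), *Nr5a2* (−0.056), *Tsc22d3* (0.33) and *Zbtb16* (0.48) between 9 and 15 weeks, for *Hsd11b1* (0.16) at 15 weeks, for *Tsc22d3* (−0.034) at 9 weeks and for *Zbtb16* in males at 15 weeks (0.065). With *Hoxb13* they turned for *Tsc22d3* (0.057) and *Zbtb16* (0.20) between 9 and 15 weeks, *Fkbp5* at 15 weeks (−0.24), and males against females at 15 weeks for *Hsd11b1* (−0.14) and *Zbtb16* (−0.10). *Hsd11b1* in males at 9 weeks was 0.10 with the replicate block, 0.30 with the mesenchyme score, 0.71 with the clock score and 0.044 with *Hoxb13*, and between the sexes at 9 weeks it was 0.14 with the clock score. With a library left out, signs turned in *Tsc22d3* (−0.051 to 0.057) and *Cyp11a1* (−0.15 to 0.46) between 9 and 15 weeks, *Hsd11b1* in males at 9 weeks (−0.29 to 0.52) and between the sexes at 9 (−0.24 to 0.18) and 15 weeks (−0.12 to 0.36), and the ratio at 15 weeks (−0.40 to 0.086). The cause was not tested. Equal replicate numbers did not pair the mice: deviations of 75 same-numbered pairs had a median correlation of −0.026, and 4 of 30 libraries correlated best with their own number. With the replicate block *Fkbp5* between 9 and 15 weeks had an adjusted p of 0.0591 and *Zbtb16* at 15 weeks 0.0963. *Zbtb16* at 15 weeks also had 0.0569 in the compared libraries only, 0.0512 with no filter and 0.248 with the clock score, a contrast of day and night clock genes. Low counts limit *Cyp11a1*, *Hsd11b1* and *Zbtb16*.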

Other observations

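*Cyp21a1*, the steroid 21-hydroxylase gene, was chosen after its counts had been seen. It had 0 to 2 counts in vehicle libraries, with 9 of 10 at 0, and 0 to 40 counts at 9 weeks, with 1 of 10 at 0. At 15 weeks it had 0 to 29 counts, with 4 of 10 at 0. It did not pass the filter on low counts and was not tested, and reads shared with close copies make its counts uncertain.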
